A study of Mus musculus with 9 samples.

Results

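The miRNAs described here are the mouse entries numbered miR-3057 to miR-3113, which entered the miRNA registry through small RNA sequencing. Members were chosen by the number in the probe name, whatever the letter, arm or star. The rule reads no measured value, although the number range was proposed with earlier results of these data in view. There were 117 such miRNAs among the 1135 miRNAs of the array, of which 1096 were mouse miRNAs. RNA came from glomeruli isolated by bead perfusion from female mice, with 3 arrays per group. The late GN group was B6.MRLc1 at 14 months of age, the early GN group was B6.MRLc1 at 9 months, and the control group was healthy C57BL/6 at 9 months. B6.MRLc1 is a C57BL/6 congenic strain that carries a segment of MRL chromosome 1 and develops autoimmune glomerulonephritis (GN). Stage and age differ together between late and early GN, and strain differs from control in both, so disease, strain and age cannot be told apart in late GN against control. The strain field of the early GN samples reads C57BL/6 against their titles, and the series text swaps the ages of both stages; the sample titles and ages were followed here. The labels do not say whether a sample was 1 animal or a pool, so the spread between arrays may be partly technical.

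A miRNA is cut from a hairpin precursor by Drosha and Dicer. Either the 5′ arm (5p) or the 3′ arm (3p) of the hairpin can be loaded into an Argonaute protein, and the less used arm was formerly marked with a star. Bases 2 to 8 of the mature strand are the seed, which pairs with target mRNAs. Many miRNAs with high numbers were first seen as few sequencing reads, and less is known of their targets than of the long-known glomerular miRNAs. In the glomerulus, miRNA processing as a whole is needed by podocytes, the cells that hold the filtration barrier.

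The array-wide picture bears on every value below. Values are the authors' globally normalized fluorescence intensities, in which the median of the listed values of each array is 25. The normalization factor ran from 1.11 to 2.36 over the arrays, and of the 1135 miRNAs 428 to 755 had a listed value. The control arrays lay on slides 1, 1 and 2, the early arrays on 2, 3 and 3 and the late arrays on 4, 4 and 5. Late GN and control thus shared no slide, so slide and group cannot be told apart between them. Detector gain was 35, 36 and 37 on the late arrays and 35 on each control array. An unlisted miRNA is one to which the deposited table gives no value. Early array 1 was low and early array 3 high across miRNAs: the median ratio of early array 3 to early array 1 was 2.67 over the 411 miRNAs listed on all 9 arrays and 2.73 over the members among them. The glomerular identity of the RNA was checked by marker miRNAs. The summed intensity of the podocyte-associated miR-26a, miR-30a, miR-30c and miR-30e was 18464 to 21108 in late GN, 12869 to 29903 in early GN and 31622 to 32833 in control. The sum of 4 leukocyte miRNAs was 363 to 529 in late GN, 93.9 to 373 in early GN and 215 to 267 in control. Among them miR-142-3p, miR-142-5p and miR-223 were higher on each late array than on each control array. miR-150 was not, with 40.9 to 64.8 in late GN and 54.1 to 67.6 in control. The sum of 4 miRNAs of liver, neuron, muscle and islet was 23.1 at most. Levels of other marker lists also moved: the endothelial sum of 2 miRNAs was 15470 to 20716 in late GN, 10090 to 21872 in early GN and 24616 to 27460 in control, and the mesangial and smooth muscle sum of 2 was 6597 to 7832 in late GN, 4027 to 8872 in early GN and 8760 to 9809 in control. The proximal tubule sum of 3 was 1065 to 1274 in late GN, 367 to 1066 in early GN and 786 to 1142 in control. Its members differed: miR-204 had 56.8 to 72.6 in late GN and 127 to 138 in control. miR-192 had 512 to 628 and 391 to 493, and miR-194 overlapped between these groups. The red blood cell sum of 2 was 430 to 689 in late GN, 206 to 797 in early GN and 840 to 961 in control. It was nearly all miR-451, since miR-144 had a value on 3 of the 9 arrays. The part of these cell types in the results below was not tested. In whole glomeruli, fewer cells of a type and less RNA per cell cannot be told apart.

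RefSeq (GRCm38.p6) gave a mature sequence for 98 of the 117 members. The arm of 51 members was read from the name and that of 64 from the order of the identifiers, since the 5p strand held the lower identifier in 61 of 61 mouse pairs named 5p and 3p with consecutive identifiers. miR-3070a was taken as the 3p strand because its partner is named 5p, and miR-3107* was left without an arm. Of the 5 members with the brightest spots in control, 4 were 5p strands in which 47.6% to 59.1% of the bases were G. They are printed 5′ to 3′ with the seed in capitals:
miR-3102*: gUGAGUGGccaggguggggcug
miR-3077*: cUGCGGACgggugggcgggcaggcc
miR-3072*: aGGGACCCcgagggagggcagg
miR-3084: uUCUGCCAgucuccuucagac
miR-3090*: gUCUGGGUggggccugagauc
The 5 members with the largest fold change in late GN against control are shown in the same way:
miR-3057-3p: uCCCACAGgcccagcucauagc
miR-3081*: gACUGGAGcuuggagcggugagc
miR-3059: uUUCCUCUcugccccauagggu
miR-3103*: gGAGGGAGgaucugcuguuag
miR-3104-5p: uAGGGGGCaggagccggagcccucu
Besides miR-3084, the members with the lowest fold change in late GN are shown because they stand apart from the rest of the series:
miR-3069-3p: uUGGACACuaaguacugccaca
miR-3068*: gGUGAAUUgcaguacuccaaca
miR-3072: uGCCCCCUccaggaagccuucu
miR-3068: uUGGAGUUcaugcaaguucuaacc
In these strands 41.7% to 63.6% of the bases were G or C, against 52.4% to 84.0% in the 10 strands printed before them. Seeds were nearly all different. Among members with a sequence that were listed on all 9 arrays, miR-3064-5p and miR-3085-3p were the pair with a common seed:
miR-3064-5p: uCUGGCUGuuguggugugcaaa
miR-3085-3p: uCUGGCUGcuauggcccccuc
miR-3064-5p had 34.9, 24.9 and 21.1 in late GN, against 18.9, 18.6 and 12 in control. miR-3085-3p had 38.7, 38.4 and 26.4 in late GN, against 22.9, 20.3 and 16.5 in control. Under this deposited scaling all late arrays lay above all control arrays for both, as in 49.1% of the 411 miRNAs. The limma test described below gave them an adjusted p of 0.245 and 0.195, in that order. On the common median, also described below, late array 3 lay below control array 1 for both. The values there were 17.1 and 18.2 for miR-3064-5p (limma adjusted p = 0.190) and 21.5 and 22.0 for miR-3085-3p (0.060).

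More members were listed in late GN than in control. The late arrays listed 84, 80 and 73 of the 117 members, the early arrays 40, 51 and 75, and the control arrays 57, 52 and 54. All late arrays thus lay above all control arrays, while the early arrays spanned the control range on both sides. The share listed among the other 979 mouse miRNAs was also higher in late GN, with 66.1%, 62.9% and 61.2% listed in late GN, 38.3%, 44.3% and 65.6% in early GN and 53.3%, 53.2% and 53.2% in control. The share of members listed exceeded that of the other mouse miRNAs by 5.7, 5.5 and 1.2 percentage points in late GN, and differed from it by -4.1, -0.7 and -1.5 points in early GN and by -4.6, -8.8 and -7.1 points in control. The gap averaged 4.1 ± 2.5 points in late GN, -2.1 ± 1.8 in early GN and -6.8 ± 2.1 in control (SD, n = 3 each). Members were therefore listed less often than other mouse miRNAs on each control and early array and more often on each late array. With a signal over the mean plus 2 SD of the blank spots in place of a listed value, 62, 62 and 62 members were detected in late GN, 26, 42 and 56 in early GN and 37, 44 and 39 in control.

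**Figure D1:**
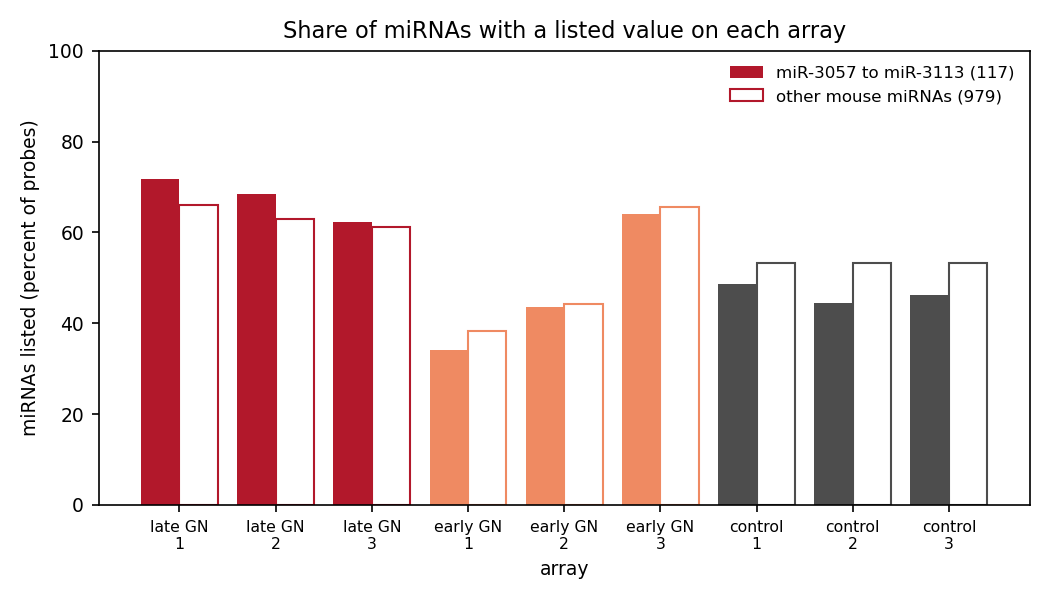
Percent of miRNAs with a listed value on each array (1 pair of bars per array, late GN, early GN, control). Filled bars are the 117 members and open bars the other 979 mouse miRNAs. Members were at 71.8%, 68.4% and 62.4% in late GN, above their neighbours, and at 48.7%, 44.4% and 46.2% in control, below them.

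Over single members, 37 (31.6%) were listed on all 9 arrays, 63 on some and 17 (14.5%) on none. Of the other 979 mouse miRNAs, 364 (37.2%) were listed on all 9 arrays and 199 (20.3%) on none. On more late than control arrays there was a value for 50 members and on fewer for 1, against 236 and 36 of the 979 other mouse miRNAs. In early GN, 16 members were listed on more arrays than in control and 14 on fewer. Of the 17 members listed on a single array, 8 were on late array 1, 6 on late array 2, 1 on late array 3 and 2 on early array 3. The single value on late array 3 belonged to miR-3078, at 34.0. The early GN and single-array counts were not made for the other mouse miRNAs, so they are not set against a background. Of the 57 members that are 5p strands, 21 (36.8%) were listed on all arrays, and so were 15 (25.4%) of the 59 that are 3p strands. On no array were 10 of the 5p and 7 of the 3p strands listed. The median number of arrays listed was 4 for 5p and 5 for 3p, so neither arm was listed more by every measure. Of the 57 numbered hairpins, 31 had a strand listed on all arrays, 5 had more than 1 such strand, and 1 had no strand listed on any array.

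There were 5 members with a value on all late arrays and on no control array. miR-3059*, the 3p partner of miR-3059, had 11.9, 6.66 and 7.27 in late GN. miR-3086-5p had 6.98, 5.52 and 6.01, and neither was listed on an early array. The other 3 had early values that overlapped the late ones. miR-3099 had 10.3, 9.73 and 7.01 in late GN and 6.58 and 14.0 on early arrays 2 and 3, miR-3070a had 12.9, 4.91 and 4.92 in late GN and 11.6 on early array 3, and miR-3108 had 12.6, 5.62 and 8.66 in late GN and 5.73 and 8.84 on early arrays 2 and 3. The lowest value listed on each control array was 6.31, 5.41 and 5.16. If unlisted means lower than that, which the sources do not state, the mean log2 values give bounds. These are at least 1.48-fold higher for miR-3059*, 1.59-fold for miR-3099, 1.10-fold for miR-3086-5p and 1.52-fold for miR-3108. The bound of 1.21-fold for miR-3070a rests on late array 1, since 4.91 and 4.92 lie below each of those control values. These late GN values ran from 4.91 to 12.9, close to the lowest values that the arrays list. Against early GN, 4 members (3.42%) were listed on all late arrays and on no early array, where 7 of the other 979 mouse miRNAs were (0.72%). These were miR-3059*, miR-3074-5p, miR-3084* and miR-3086-5p, at least 1.66-, 1.88-, 1.71- and 1.23-fold higher on the same assumption. No member was listed on all control arrays and on no late array. For 117 members this is 4.27% listed on 3 late and 0 control arrays, and for the other 979 mouse miRNAs it was 1.94%.

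For the members listed on all 9 arrays the median level was higher in late GN. It was 48.5, 55.6 and 38.8 on the late arrays, 14.9, 25.7 and 40.5 on the early arrays and 26.2, 24.9 and 24.5 on the control arrays. All late medians lay above all control medians, and the early medians spread over both. Of the 37 members, 33 had a positive log2 fold change in late GN against control, with a median of 0.85 and a range of -0.39 to 1.28, and 8 were at least 2-fold higher. The median over all 411 miRNAs was 0.45 and that over the 374 others 0.30. In 28 of the 37 members all 3 late arrays lay above all 3 control arrays, a pattern found in 49.1% of the 411 miRNAs, and in 0 members all late arrays lay below all control arrays, against 21.7%. In the test across the 411 miRNAs (limma, all 9 arrays, Benjamini-Hochberg adjustment), which called 4.14% of them at an adjusted p under 0.05, 0 members passed. The lowest adjusted p of a member was 0.070. At an unadjusted p under 0.05, 15 of the 37 members were higher and 0 lower, where 27.5% of the 411 miRNAs were higher and 2.92% lower. This test gives each fold change a common standard error of 0.44 that takes in the spread of the early arrays. Without early array 1 it called 21 members higher, where it called 31.6% of the 411 miRNAs higher, and without early array 3 it called 25, against 41.8%. Fitted on late GN and control alone it called 31 members higher, against 48.7%. No member was called lower in these 3 fits, where 8, 56 and 72 of the 411 miRNAs were, in the order given. Dunnett's test called 0 members and 0 of the 411 miRNAs. The methods' t-test called 23 members higher after adjustment and 24 before it, where 41.6% and 45.5% of the miRNAs were called higher. A single member compared by exact permutation of 3 arrays against 3 cannot give a p below 0.1.

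Changes were also read after the arrays were shifted so that the 411 miRNAs had 1 and the same median log2 value on every array (the common median). This lowers the median log2 fold change of all 411 in late GN against control to 0.13 and that of the members to 0.54. On this scale 19 members were higher, or 51.4% of the 37, where 32.1% of the 411 miRNAs were called higher, and 2 members were lower (miR-3069-3p and miR-3072), or 5.41%, where 29.9% of the 411 were called lower. Members thus stood on the higher side of the distribution on either scale, while the size of the change and the number of calls depended on the scale.

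**Figure D2:**
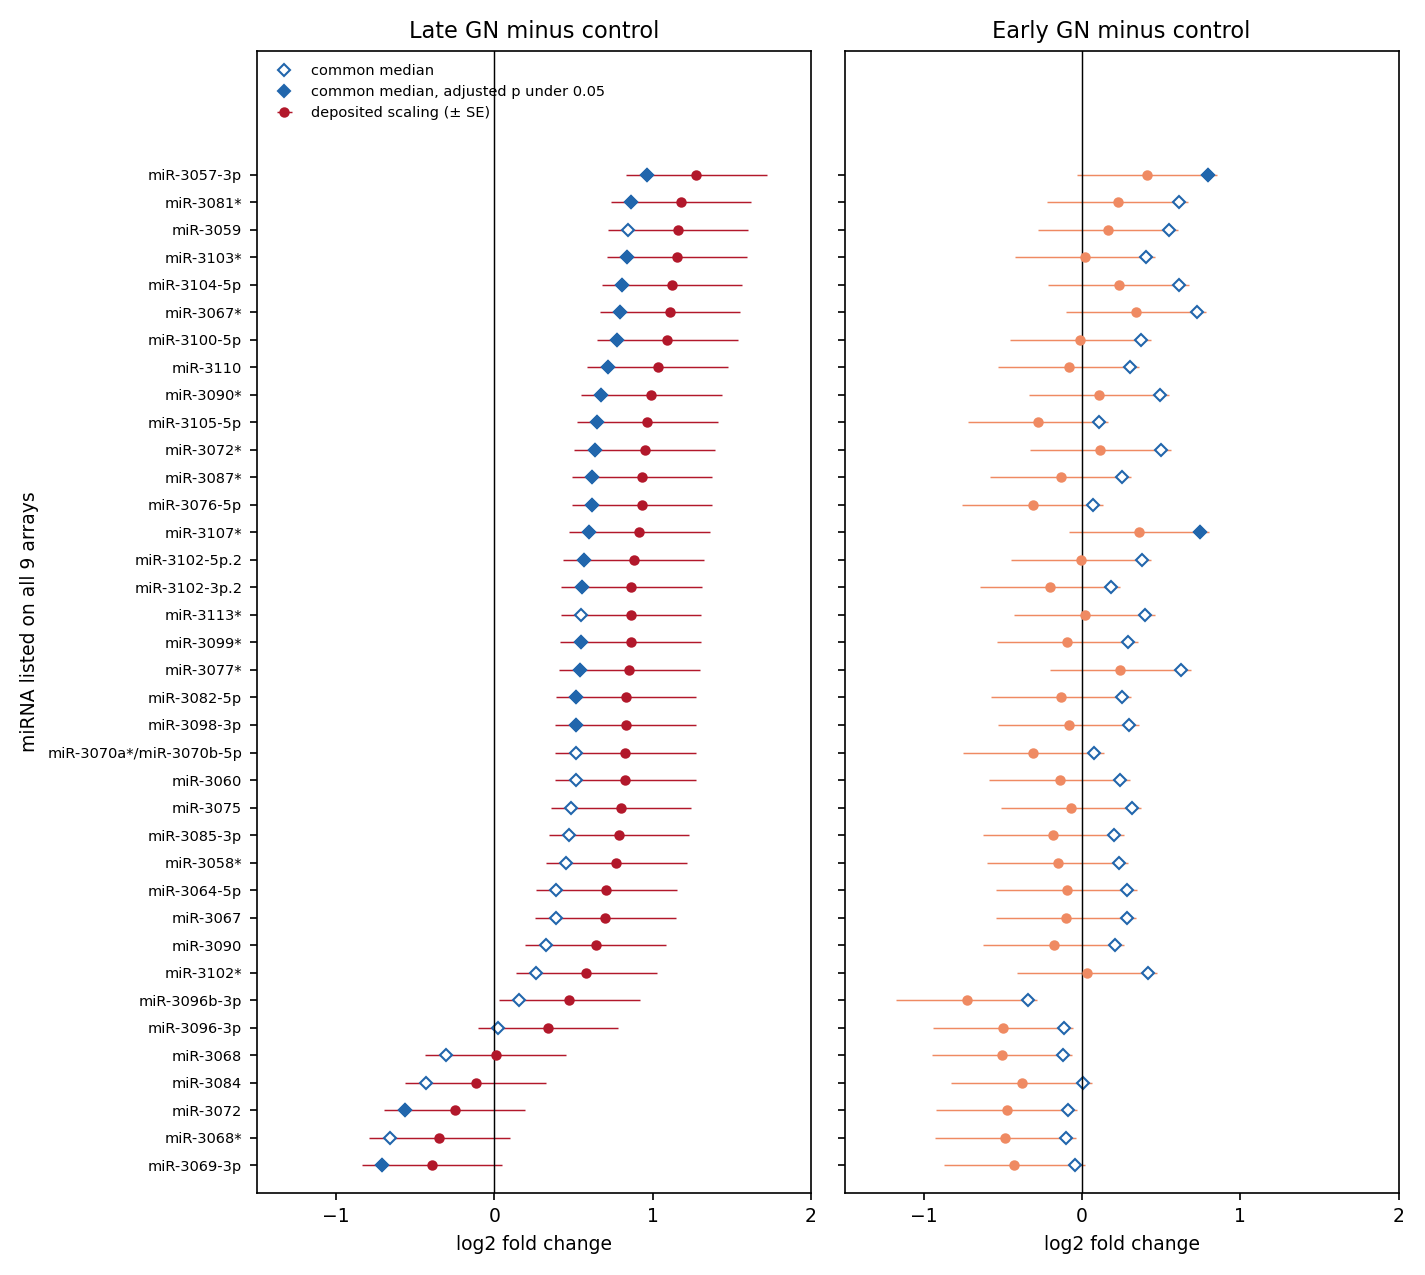
Log2 fold change of the 37 members listed on all 9 arrays, late GN minus control on the left and early GN minus control on the right. Circles with bars are the deposited scaling ± SE, diamonds the common median scaling, filled where the adjusted p was under 0.05. In late GN 33 circles lie above 0, and in early GN 12 do.

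Of the 5 members with the largest change in late GN, 4 had control values between 6.86 and 28.9. miR-3057-3p, which lies in the span of Apba3 (10:81271654-81271675, + strand), had 48.1, 43.2 and 32.1 in late GN, 14.8, 22.1 and 33.6 in early GN and 18.2, 13.3 and 19.3 in control. All late values exceeded all control values, and early array 3 exceeded late array 3. Its log2 fold change in late GN against control was 1.28 ± 0.44 (SE; limma adjusted p = 0.070), or 0.96 with an adjusted p of 0.0038 on the common median. Its 5p partner miR-3057-5p was listed on no late array, on early array 3 (9.11) and on control array 1 (7.44), which made it the member listed on fewer late than control arrays. miR-3081*, in the span of Boc (16:44558092-44558114, - strand), had 54.8, 69.3 and 48.0 in late GN, 17.7, 31.3 and 45.2 in early GN and 21.8, 24.9 and 28.9 in control, while its 3p partner miR-3081 was listed on no array. Late GN values of miR-3081* lay above all early and control values under the deposited scaling. On the common median, early array 2 (47.5) exceeded late arrays 1 and 3 (42.2 and 39.0). The log2 fold change of miR-3081* against control was 1.18 (limma adjusted p = 0.105, and 0.0069 on the common median). miR-3059, in the span of Mgat4c, had 30.3, 30.0 and 17.4 in late GN, 5.01, 15.7 and 25.3 in early GN and 17.1, 12.1 and 6.86 in control. Its late and control groups met closely, at 17.4 and 17.1, and its adjusted p was 0.064 on the common median. miR-3103* had 44.8, 55.6 and 37.7 in late GN, 10.5, 20.9 and 40.6 in early GN and 19.9, 24.0 and 18.0 in control. Its 3p partner miR-3103 was listed on all late arrays (19.2, 12.9 and 16.9), on early array 3 (15.3) and on all control arrays (6.67, 8.69 and 9.96), so both strands of this hairpin were higher on each late array than on each control array. miR-3104-5p, in the span of Brsk2, was the brightest of these, with 266, 285 and 217 in late GN, 89.0, 150 and 195 in early GN and 118, 116 and 118 in control. Its mean was 256 ± 35.0 in late GN and 117 ± 1.29 in control (SD, n = 3 each), a log2 fold change of 1.12 (limma adjusted p = 0.109, and 0.0069 on the common median). Its 3p partner miR-3104-3p had 17.6, 17.0 and 9.81 in late GN and 11.5, 11.8 and 8.10 in control, with overlap.

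**Figure D3:**
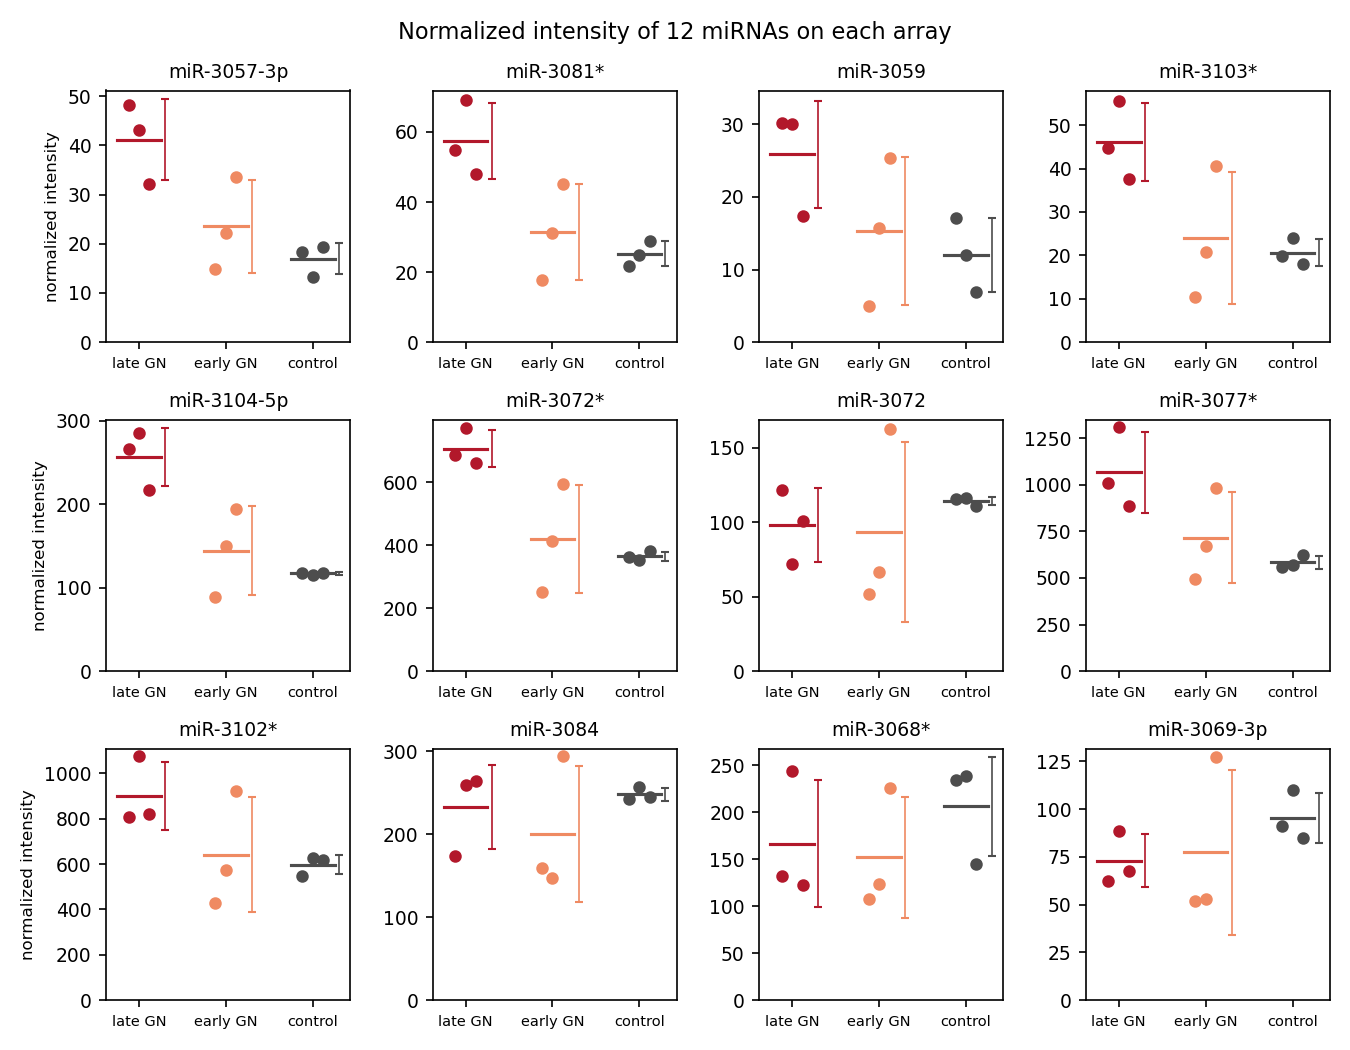
Normalized intensity (linear scale, starting at 0) of 12 members on each array, in late GN, early GN and control. Points are arrays, horizontal lines means and bars ± SD. For miR-3104-5p the late arrays (217 to 285) lie above the control arrays (116 to 118), and for miR-3072 (72.1 to 122 and 111 to 117) they overlap.

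Of the 5 members brightest in control, 4 were higher on each late array than on each control array under the deposited scaling. This pattern was found in 49.1% of the 411 miRNAs. miR-3102*, from a hairpin in the span of Arhgef17 (7:100882388-100882409, - strand), had 808, 1075 and 820 in late GN, 428, 573 and 923 in early GN and 548, 628 and 617 in control. Under the deposited scaling its late GN and control values did not overlap, yet its log2 fold change was 0.58 (limma adjusted p = 0.348). On the common median the log2 fold change was 0.27 (limma adjusted p = 0.213), and late array 1 (622) lay below control array 2 (631). The inner strands of this hairpin were also listed on all arrays. miR-3102-5p.2 had 240, 265 and 207 in late GN and 145, 108 and 136 in control, and miR-3102-3p.2 had 34.6, 38.7 and 33.7 in late GN and 24.9, 18.3 and 16.4 in control. The fourth strand, miR-3102, had 21.9, 25.6 and 14.7 in late GN and 12.1, 11.7 and 8.89 in control. Under the deposited scaling all 4 strands were thus higher in late GN, without overlap. miR-3077*, in the span of Sap18, had 1009, 1309 and 885 in late GN, 497, 672 and 981 in early GN and 560, 569 and 622 in control. Its log2 fold change in late GN was 0.85 (limma adjusted p = 0.170, and 0.035 on the common median), and its partner miR-3077 had a single value, 7.71 on late array 2. miR-3090* had 466, 580 and 390 in late GN, 164, 243 and 419 in early GN and 237, 229 and 247 in control, a log2 fold change of 0.99 (limma adjusted p = 0.129, and 0.010 on the common median). Its partner miR-3090 had 18.0, 11.9 and 19.1 in late GN and 11.2, 12.3 and 7.89 in control, with overlap. miR-3084, in the span of Cbwd1, was the exception, with 174, 260 and 264 in late GN, 159, 148 and 295 in early GN and 243, 257 and 245 in control. The 3 groups overlapped, with a log2 fold change of -0.12 in late GN (limma adjusted p = 0.852). Its partner miR-3084* was listed on all late arrays, at 7.88, 9.17 and 8.67, on no early array and on control array 1, at 7.62.

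The 2 strands of the miR-3072 hairpin differed. This hairpin lies on chromosome 12 within 10 kb of Mir154, Mir377, Mir409, Mir410 and others, in the imprinted Dlk1-Dio3 domain. The 5p strand miR-3072* (12:109747893-109747914, + strand) had 686, 773 and 660 in late GN, 252, 414 and 594 in early GN and 364, 352 and 380 in control, and the log2 fold change in late GN was 0.95 (limma adjusted p = 0.131, and 0.013 on the common median). The 3p strand miR-3072 had 122, 72.1 and 101 in late GN, 51.6, 66.4 and 163 in early GN and 115, 117 and 111 in control, a log2 fold change of -0.25 (limma adjusted p = 0.707, and -0.57 with 0.031 on the common median). The log2 difference between the strands within each array, which does not depend on how arrays are scaled, was 2.49, 3.42 and 2.71 in late GN, 2.29, 2.64 and 1.87 in early GN and 1.66, 1.59 and 1.77 in control. Both GN groups lay above all control arrays in this difference, by 1.20 on average in late GN. The other hairpins with more than 1 strand on all arrays showed smaller shifts. The same difference moved by -0.41 in late GN against control for miR-3067 over miR-3067*, 0.36 for miR-3068 over miR-3068*, 0.35 for miR-3090* over miR-3090 and -0.28 for miR-3102* over miR-3102-3p.2, and each of these overlapped between late GN and control. These differences were computed after the values had been seen and carry no test.

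The other members low in late GN were the strands of miR-3068 and miR-3069-3p. miR-3068* had 133, 244 and 123 in late GN, 107, 123 and 225 in early GN and 235, 239 and 145 in control, and each group held 1 array apart from the rest. miR-3068, the 5p strand of the same hairpin in the span of Alkbh1, had 59.0, 58.9 and 58.2 in late GN, 30.3, 27.7 and 82.8 in early GN and 56.7, 58.5 and 59.9 in control, so that late GN and control held nearly the same value. miR-3069-3p had 62.5, 88.8 and 67.8 in late GN, 51.8, 53.2 and 127 in early GN and 91.2, 110 and 85.0 in control, with overlap of late array 2. Its log2 fold change of -0.39 in late GN was the lowest of the series (limma adjusted p = 0.522), and it was called lower on the common median, at -0.71 (0.011). Its 5p partner miR-3069-5p was listed on no array.

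In early GN the members showed no common change against control under the deposited scaling. Of the 37 log2 fold changes 12 were positive, with a median of -0.10 and a range of -0.73 to 0.41, where all 411 miRNAs had a median of -0.38. No member was called (limma, all 9 arrays), where 0.243% of the 411 miRNAs were, no member passed an unadjusted p of 0.05, and neither Dunnett's test nor the methods' t-test called any. In 0 members did the early arrays lie wholly above control, a pattern held by 1.95% of the miRNAs, and in 0 members wholly below, against 6.33%. The spread lay between arrays and ran across miRNAs. Early array 1 was below control array 3 in 35 of the 37 members and in 392 of the 411 miRNAs. The median level of members was 14.9 on early array 1, 40.5 on early array 3 and 24.5 to 26.2 in control. For the other mouse miRNAs listed on all arrays it was 29.5, 81.0 and 58.3 to 59.7. Without early array 3 the test called 7 members, all lower, where it called 56.4% of the 411 miRNAs lower. Without early array 1 it called 0 members, where it called 0.73% of the miRNAs. The largest positive values were those of miR-3057-3p, miR-3107* and miR-3067*, at 0.41, 0.36 and 0.34. miR-3107* had 274, 271 and 244 in late GN, 118, 205 and 237 in early GN and 129, 137 and 154 in control. miR-3067* had 10.3, 25.2 and 32.8 in early GN and 12.2, 17.9 and 19.2 in control. The largest negative values were -0.73 for miR-3096b-3p, -0.51 for miR-3068 and -0.50 for miR-3096-3p. miR-3096b-3p had 10.1, 5.83 and 39.3 in early GN and 22.5, 22.4 and 21.0 in control, so its early arrays lay on both sides of control. With a common median, 2 members were higher in early GN, miR-3057-3p at 0.79 (limma adjusted p = 0.035) and miR-3107* at 0.74 (0.047), where 6.81% of the miRNAs were called higher, and 0 members were lower, where 3.89% were. The slide that held early array 1 and control array 3 gave a median log2 difference of -0.71 for early array 1 minus control array 3 over the members and -1.01 over the 411 miRNAs, with 1 array per group and no test.

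All 37 members had a positive log2 fold change in late against early GN under the deposited scaling, with a median of 0.89, where 399 of the 411 miRNAs were positive with a median of 0.70. In 12 members all late arrays lay above all early arrays, where 21.4% of the miRNAs did so, and the reverse was found in 0 members and in 0% of the miRNAs. The limma test called 0 members, where it called 1.7% of the miRNAs, and 20 members passed an unadjusted p of 0.05, all higher, where 30.2% of the miRNAs were higher at that p. The methods' t-test called 0 after adjustment and 2 before it, where 5.35% of the miRNAs were called before it. Without early array 3 the limma test called 35 members, all higher, where it called 91.5% of the miRNAs. The largest differences were 1.24 for miR-3076-5p, with 69.1, 73.4 and 72.4 in late GN and 15.1, 34.2 and 53.7 in early GN, and 1.24 for miR-3105-5p, with 42.4, 59.2 and 38.8 in late GN and 9.44, 19.2 and 40.5 in early GN (both chosen after the values were seen). On the common median 29 of the 37 members were positive, with a median difference of 0.19, where 204 of the 411 miRNAs were positive. The test then called 0 members higher or lower, where 0% and 0.243% of the miRNAs were called.

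Other mouse miRNAs with high numbers had medians of like size. The median log2 fold change in late GN against control was 0.98 for 14 miRNAs of miR-680 to miR-721, 0.96 for 28 of miR-1892 to miR-1971 and 0.78 for 23 of miR-5097 to miR-5136, beside 0.85 for the 37 members and -0.06 for the 299 mouse miRNAs outside these 4 groups. In early GN the medians were 0.01, -0.08 and 0.07, beside -0.10 for the members and -0.56 for the 299. A median of this size in late GN was thus not particular to the range miR-3057 to miR-3113. The share of members listed was 71.8%, 68.4% and 62.4% in late GN and 48.7%, 44.4% and 46.2% in control, so each late array listed more members than each control array. The same held for the other 3 numbered groups. Of miR-680 to miR-721, 52.4%, 61.9% and 54.8% were listed in late GN and 42.9% to 47.6% in control. Of miR-1892 to miR-1971, 80.6%, 66.7% and 69.4% were listed in late GN and 56.9% to 58.3% in control. Of miR-5097 to miR-5136, 82.5%, 85.0% and 80.0% were listed in late GN and 70.0% to 77.5% in control.

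**Figure D4:**
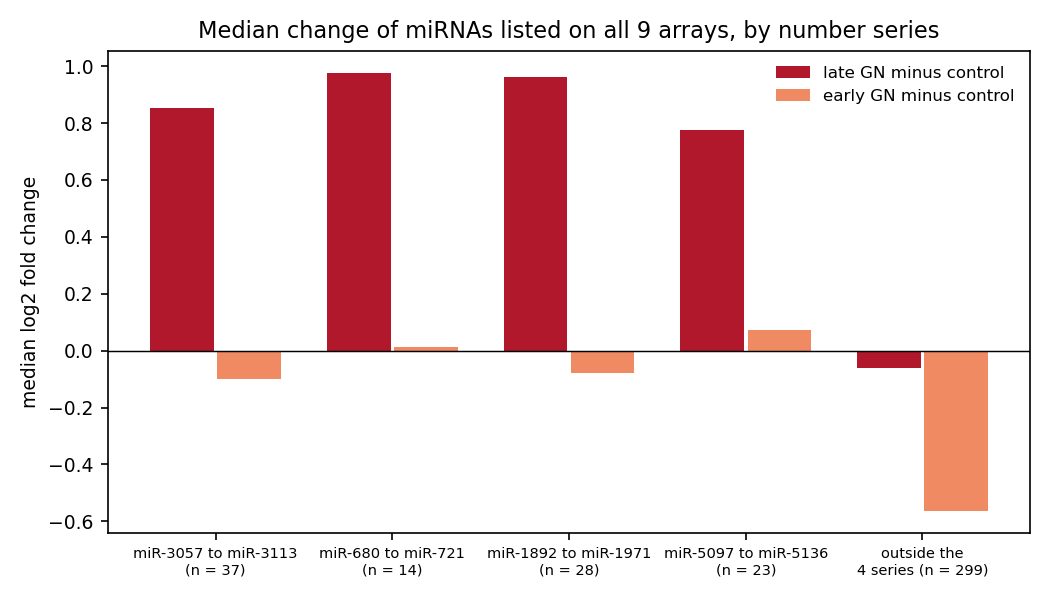
Median log2 fold change of the miRNAs listed on all 9 arrays, by number range, for late GN minus control and early GN minus control (deposited scaling). The 4 ranges of high-numbered miRNAs have medians of 0.78 to 0.98 in late GN, and the 299 mouse miRNAs outside them -0.06.

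Base composition went with both detection and fold change. The median share of G and C was 61.9% (41.7% to 84.0%) in the 32 sequenced members listed on all arrays, 52.2% (36.4% to 72.7%) in the 53 listed on some and 42.9% (36.4% to 60.9%) in the 13 listed on none. Over the 32 members, the correlation of the G and C share with the log2 fold change was 0.49 in late GN against control and 0.63 in early GN against control, and with the mean log2 level in control it was 0.28. Over 92 other mouse miRNAs on all arrays with the same name in RefSeq, the correlation with the late GN fold change was 0.40. These are descriptions over miRNAs of the same 9 arrays, which share RNA samples and scaling, and the part of base composition in the late GN result was not tested. The mean log2 control level and the late GN fold change of the 32 members had a correlation of -0.40.

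**Figure D5:**
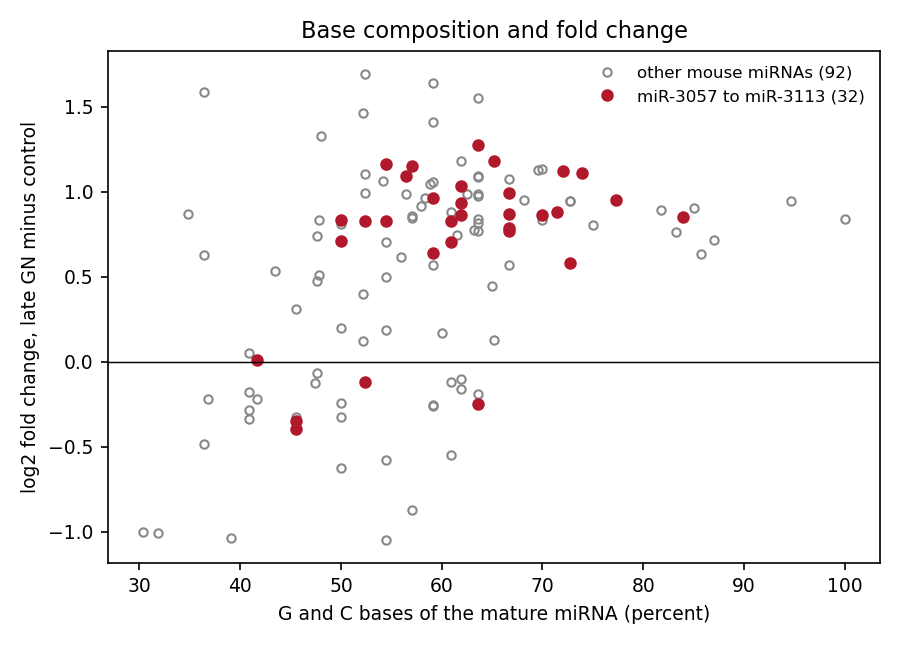
Share of G and C bases of the mature strand (percent) against the log2 fold change in late GN minus control, for 32 members (filled) and 92 other mouse miRNAs (open), 1 point per miRNA. Members with under 50% of G and C, the miR-3068 strands and miR-3069-3p, lie at 0.01 and below.

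By genome position, 80 of the 98 sequenced members lay within the span of a protein-coding gene, strand not considered, and 14 lay within 10 kb of another RefSeq hairpin. The chromosome 12 group around Rtl1 and Mir127 held miR-3070a, miR-3070b and miR-3071. The probe shared by miR-3070a* and miR-3070b-5p had 46.2, 44.6 and 36.2 in late GN, 9.11, 23.0 and 33.6 in early GN and 25, 21.5 and 24.8 in control. Under the deposited scaling all its late values lay above all others. Of the 411 miRNAs, 49.1% lay so above control and 21.4% above early GN. The limma adjusted p was 0.175 against control and 0.096 against early GN. On the common median, late array 3 (29.4) lay below early array 2 (34.9). The strands miR-3070b-3p (8.01, 16.8 and 14.3 in late GN, 6.25 on control array 2), miR-3071 and miR-3071* were listed on 5, 4 and 1 of the 9 arrays.

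Some members share a hairpin region with a long-known miRNA. miR-3074 is read from the strand opposite to miR-24. miR-3074-5p had 10.2, 10.5 and 7.77 in late GN, no value in early GN and 9.68 on control array 3, while miR-24 had 7126, 6706 and 8123 in late GN, 4839, 5221 and 11080 in early GN and 10297, 10186 and 10776 in control. miR-24-2* averaged 310 ± 16.2 in late GN, 253 ± 104 in early GN and 412 ± 42.4 in control, and miR-24-1* averaged 103 ± 9.31 in late GN, 93.5 ± 45.8 in early GN and 142 ± 17.5 in control (SD, n = 3 each). miR-3065 is opposite to miR-338. It was listed on no array, and its partner miR-3065* had 13.2, 18.0 and 12.2 in late GN, 9.04 and 8.34 on early arrays 2 and 3, and 5.46 on control array 2. miR-338-3p averaged 160 ± 33.6 in late GN, 140 ± 63.1 in early GN and 200 ± 11.5 in control, and miR-338-5p had 16.3, 8.38 and 6.44 in late GN and 10.2, 8.82 and 9.34 in control. miR-3107 is opposite to miR-486, a miRNA known from red blood cells and muscle, and 1 probe of the array is named for both. That probe had 37.9, 24.3 and 30.3 in late GN, 8.68, 9.29 and 31.2 in early GN and 28.0, 12.4 and 22.4 in control. miR-3107* had a log2 fold change of 0.92 in late GN (limma adjusted p = 0.146, and 0.031 on the common median), and miR-486* had 345, 366 and 283 in late GN, 98.3, 197 and 180 in early GN and 121, 90.7 and 101 in control. Both were higher on each late array than on each control array, as were 49.1% of the 411 miRNAs under the deposited scaling. Of the 2 red blood cell markers, miR-451 had 425 to 689 in late GN and 828 to 952 in control. miR-144 had a value on 3 of the 9 arrays. The part of red blood cells in these values was not tested.

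Across the 9 arrays, the miRNAs whose log2 values ran most like those of miR-3102* were miR-466h-3p (r = 0.986), miR-669c* (0.975) and miR-5107 (0.973) under the deposited scaling. On the common median they were miR-326* (0.975), miR-1894-3p (0.943) and the member miR-3077* (0.939).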

How the data were processed

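The authors hybridised glomerular RNA to 3D-Gene mouse miRNA arrays, 9 in all, and deposited scanner output and a globally normalized intensity table. By the files, each listed intensity is the spot median minus about the blank mean, times 1 factor per array. The rule for unlisted values and the software versions are not given in the sources used here. The series table held the same values for 1123 identifiers.

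Here log2 intensities of the 411 miRNAs listed on all arrays were fitted with limma 3.58.1 in R 4.3.3 (3 groups, shared spread, Benjamini-Hochberg over 411). Array number limits the precision. Alternatives covered scaling, scanner signal, filters, pseudocount, blocks, tests and left-out arrays. Named members were those called, the 5 brightest in control, the 5 highest and 5 lowest in late GN, 3 of each in early GN, members listed in 1 group only, and partner strands. The number range and the lists were chosen with earlier results of these data known. Sequence tables (RefSeq, GRCm38.p6) were read with Python 3.11.15 and pandas 2.3.3. The paper's sequencing, PCR and human samples were not analysed here.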

Additional observations from a re-analysis of the deposited data

How the results depend on the processing

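The number of members called in late GN against control was 0 and depended on the setting. Each count is given with its share of the members tested and then the share of all miRNAs tested that the same setting called, in either direction. It was 21 with a common median (56.8%, all 62%), 11 with normexp and quantile on the scanner signal (29.7%, all 37%), 11 with that over every probe (9.4%, all 11.4%), 17 with the scanner signal set to the 75th percentile of listed probes (45.9%, all 43.8%), 7 with that of all probes (18.9%, all 38.9%), 6 with the spike controls (16.2%, all 15.1%) and 3 with a pseudocount of 16 (8.11%, all 10.2%). It was 31 with only the 2 groups compared (83.8%, all 66.2%), and by the methods' t-test 23 adjusted (62.2%, all 55.7%) and 24 unadjusted (64.9%, all 63.5%). Leaving out 1 array gave 0 to 25, with 21 without early array 1 (56.8%, all 33.6%) and 25 without early array 3 (67.6%, all 55.5%). For early GN against control the count of 0 became 2 with a common median (5.41%, all 10.7%), and 1 with normexp and quantile (2.7%, all 13.9%), with that over every probe (0.855%, all 2.11%) and with the 75th percentile of all probes (2.7%, all 5.35%). Leaving out 1 array gave 0 to 7, with 7 without early array 3 (18.9%, all 57.7%). For late against early GN the count of 0 became 2 by the unadjusted t-test of the methods (5.41%, all 5.35%), and leaving out 1 array gave 0 to 35, with 35 without early array 3 (94.6%, all 91.5%). With a replicate block 0 members were called in each comparison, against 0.243% to 3.89% of all miRNAs. The replicate numbers carry no stated pairing, and the correlation of same-numbered deviations ran from -0.224 to 0.34. With the slide as a random block 0 members were called in each comparison. That setting called 0% of all miRNAs in late and in early GN against control and 0.973% in late against early GN. The median log2 fold change of the members in late GN stayed above 0 in each alternative, at 0.10 with normexp and quantile at the lowest and 0.94 with the spike controls at the highest. In early GN it was 0.29 with the common median and 0.05 with normexp and quantile. A single named member changed sign, neither value being called, in 15 cases in late GN against control, in 25 in early GN against control and in 45 in late against early GN. Under the blank threshold the median number of members detected was 62 in late GN, 42 in early GN and 39 in control, against 80, 51 and 54 listed. By that threshold 48.6% to 52.0% of the other mouse miRNAs were detected in late GN, 31.4% to 50.6% in early GN and 41.5% to 43.1% in control. Signals close to the blank spots limit the members not listed on all arrays. The cause of these differences was not tested.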
